A study of Mus musculus with 10 samples.

Results

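JUN binding was compared between a TGF library and a siHK1 library of mouse cardiac fibroblasts, as CUT&Tag reads summed over all regions annotated to a gene. The JUN table listed 72990 regions named for 16970 genes, and the 13450 genes (79.3%) with at least 50 reads over both libraries were described. They carried 98.4% of the reads in each library. In CUT&Tag an antibody tethers a transposase to chromatin, so that the DNA next to the bound protein is tagged and sequenced. Primary fibroblasts from mouse heart were used, and TGF-β, a cytokine that turns fibroblasts into contractile, matrix-secreting myofibroblasts, was given in both groups. The siHK1 group also received a small interfering RNA against hexokinase 1 (HK1), the enzyme that phosphorylates glucose at the entry of glycolysis, before TGF-β. The labels do not say whether the TGF cells received a control siRNA, so knockdown and transfection cannot be told apart. The comparison asks whether JUN binding depends on HK1.

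JUN is the founding subunit of AP-1, a dimeric transcription factor in which a JUN protein pairs with a FOS, ATF or another JUN protein through a leucine zipper. AP-1 binds the TPA response element, which reads TGAGTCA on one strand and TGACTCA on the other, and it is switched on by mitogen- and stress-activated kinases and by TGF-β. In fibroblasts AP-1 occupies a very large number of enhancers, among them those of matrix, protease and cytokine genes, and often acts beside SMAD proteins.

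There was 1 library a side. Replicate error is therefore unknown, nothing was tested, and what follows describes these libraries rather than the treatments they stand for. The cells were pooled in bulk, so that JUN on fewer cells and less JUN per cell cannot be told apart. The table held 4215447 reads in TGF and 2271336 in siHK1, a ratio of 1.86, over 37.7 Mb (112 and 60.3 reads per kb). Both libraries were scaled to equal totals, so a loss of binding shared by all regions cannot be seen. The intervals given are exact (Clopper-Pearson) 95% intervals of the siHK1 share of a gene's reads, which take in counting error alone (copies made by PCR are counted as if independent). The data hold no RNA or protein measure, and the knockdown itself was not checked.

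All 20 genes of the fibroblast marker list were members, among them Pdgfra, Tcf21, Thy1 and Ddr2, with 13555 reads in TGF and 6887 in siHK1 summed over the list. Marker loci of other cell types also held JUN reads. Endothelial genes had 10 of 10 members (4072 and 2066 reads), cardiomyocyte genes 6 of 10 (718 and 351 reads), smooth muscle and pericyte genes 7 of 8 (1538 and 761 reads), macrophage and leukocyte genes 4 of 10 (825 and 437 reads), epithelial genes 5 of 8 (1202 and 647 reads) and neuronal genes 5 of 6 (1736 and 926 reads). Among the cardiomyocyte genes Ryr2 (365 and 169 reads), Tnnt2 (113 and 55), Myh6 (84 and 38) and Nkx2-5 (55 and 25) had regions, while Myh7, Pln and Actc1 had none. Of the leukocyte genes Csf1r (505 and 241) and Itgam (182 and 108) had regions, while Adgre1, Spi1, Lyz2, Cd3e and Cd79a had none. No control antibody entered the comparison, so background reads cannot be told apart from binding at a locus. Binding at a locus does not show that the gene is used, and the cell types present were not tested.

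To show the sequence under JUN at genes described below, stretches of 61 bases are given around the element nearest the middle of the most-read region that holds one, for 7 genes with a lower JUN level in siHK1 after scaling to equal totals and 3 with a higher one. They are read from GRCm38 (mm10), plus strand, 5′ to 3′, and the capitals mark TGAGTCA or its complement TGACTCA.
Il11, intron next to the start site, chr7:4778206-4778266: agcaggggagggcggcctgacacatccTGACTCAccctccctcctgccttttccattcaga
Meox1, intron, chr11:101885810-101885870: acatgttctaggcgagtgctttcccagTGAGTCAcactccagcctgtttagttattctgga
Chrdl2, distal intergenic, chr7:100046680-100046740: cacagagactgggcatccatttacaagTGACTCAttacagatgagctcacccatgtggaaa
Acta2, intron next to the start site, chr19:34255165-34255225: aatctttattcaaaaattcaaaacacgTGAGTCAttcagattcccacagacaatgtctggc
Wnt5a, distal intergenic, chr14:28731373-28731433: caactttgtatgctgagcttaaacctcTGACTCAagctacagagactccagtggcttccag
Ptgs2, downstream of the gene, chr1:150108770-150108830: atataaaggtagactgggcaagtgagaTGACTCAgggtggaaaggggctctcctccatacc
Pdgfb, intron class upstream of the start site, chr15:80024475-80024535: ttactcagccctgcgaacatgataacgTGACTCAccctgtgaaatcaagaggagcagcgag
Tll2, intron, chr19:41160385-41160445: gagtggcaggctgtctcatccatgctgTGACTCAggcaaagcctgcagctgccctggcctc
Zfand2a, next to the start site, chr5:139479207-139479267: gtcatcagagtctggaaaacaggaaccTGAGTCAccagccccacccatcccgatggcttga
Bdkrb2, distal intergenic, chr12:105546736-105546796: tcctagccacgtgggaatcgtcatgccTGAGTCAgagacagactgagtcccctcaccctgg

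Every region printed above lay beyond 1.5-fold in the direction of its gene. The same rule gave regions that did not at other genes named below. They were lower in siHK1 at Bcl2 (19 TGF and 7 siHK1 reads, log2 ratio -0.49) and Ccn3 (60 and 29, -0.14), whose summed level was higher. At Cthrc1 the region was within 1.5-fold (64 and 30, -0.19). The element lay somewhere in 31091 of the 72990 regions (42.6%), and in the central 200 bases of 17569 (24.1%). For comparison, 1709 of 32851 RefSeq promoter windows of 300 bases on GRCm38 held it (5.20%). Among JUN regions of promoter class 14.4% had it in the central 200 bases. Regions with the element in their centre were more densely bound, at 141 reads per kb in TGF and 75.4 in siHK1, against 103 and 55.6 without it. Their ratio did not separate from the rest. The median log2 ratio of siHK1 to TGF was -0.04 over regions with the element and -0.05 over those without. The same held in promoters (-0.02 and -0.03) and outside them (-0.04 and -0.06).

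Scaling to equal totals by itself places the ratios around 0, so a median near 0 is no result. Without scaling the median over the 13450 members was -0.90, and the values below are after scaling. The median log2 ratio of siHK1 to TGF was -0.01, the quartiles were -0.22 and 0.20, and the range ran from -2.93 to 1.72. A ratio within 1.5-fold was found for 12076 genes (89.8%). There were 826 members (6.14%) lower in siHK1 by 1.5-fold or more and 548 (4.07%) higher. At 2-fold or more these counts were 163 and 71. The counting interval lay wholly beyond 1.5-fold for 77 lower and 30 higher genes, and wholly below 0 for 1784 genes and above 0 for 1462.

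**Figure D1:**
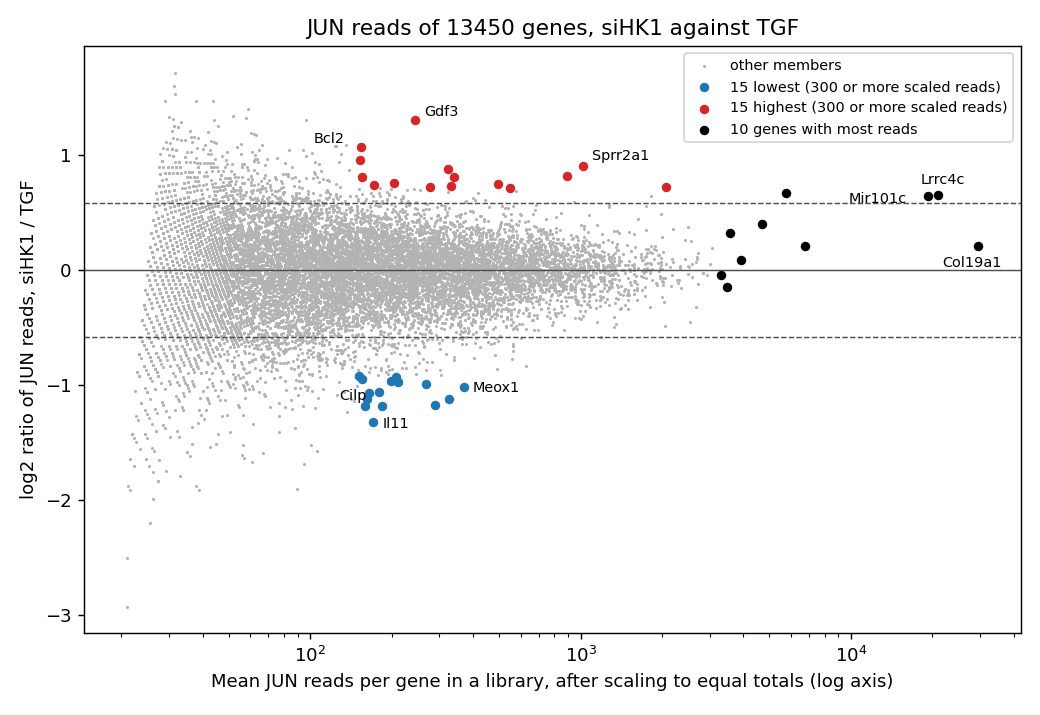
Log2 ratio of JUN reads (siHK1 over TGF, vertical) against the mean reads per gene after scaling to equal totals (horizontal, log axis) for 13450 genes, with dashed lines at 1.5-fold. The cloud narrows around 0 toward the right, while the genes with most reads (black) include 3 above the upper line.

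The spread followed the reads behind each gene. In the lowest quintile by level (median 47 reads in TGF and 25 in siHK1) the SD of the log2 ratio over genes was 0.52, with 13.1% of genes lower and 9.52% higher by 1.5-fold. In the highest quintile (median 737 and 390 reads) the SD was 0.22, with 0.855% lower and 0.669% higher. The 2392 genes with a single region had a median log2 ratio of 0.03 and the 1536 genes with 11 or more regions -0.01. Genes are cited below from the 5755 members with at least 300 scaled reads, of which 127 (2.21%) were lower and 56 (0.973%) higher, unless another reason is given. The members at the read minimum, 62 genes with 50 reads and 74 just outside with 49, rest on too few reads for single ratios.

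Among the 15 lowest genes the log2 ratio ran from -1.32 to -0.93. Their known roles are varied. Il11, Meox1, Cilp and Chrdl2 are described first, a choice made after the values were seen. The lowest was Il11, which encodes interleukin 11, a cytokine that TGF-β induces in fibroblasts. Il11 had 318 reads in TGF and 68 in siHK1, a log2 ratio of -1.32 (95% interval -1.73 to -0.95), or 2.51-fold fewer after scaling. All 3 of its regions, each of promoter class, were lower. The region over the start site (chr7:4777938-4778527, the one printed above) had 152 reads in TGF and 32 in siHK1. The next 2, 1774 bases upstream and 1234 bases downstream of a start site, had 85 and 17, and 81 and 19 reads.

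Meox1 encodes a homeobox factor that activated cardiac fibroblasts express. Its 10 regions held 644 TGF and 171 siHK1 reads, a log2 ratio of -1.02 (-1.27 to -0.78), and 8 of the 10 were lower. The intronic region printed above (chr11:101885266-101886165) had 206 reads in TGF and 29 in siHK1, a log2 ratio of -1.92. Outside it, a region 19940 bases downstream of the start had 111 and 22 reads, and the most distant one, at 44651 bases, had 109 and 50 (-0.22). The ratio was thus uneven along the locus. Over the 3 Meox1 regions with a peak marked in both libraries it was -0.13, within 1.5-fold.

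Cilp, a matrix protein of cartilage and of fibrotic heart that binds TGF-β, had 334 reads in TGF and 79 in siHK1 (log2 ratio -1.18, -1.56 to -0.83). All 5 of its regions were lower, and 4 of them lay upstream of the gene. Chrdl2, an extracellular BMP antagonist, had 363 and 99 reads (-0.98, -1.32 to -0.66), but this value rests on 1 site. The distal region printed above took 82.9% of its reads (313 TGF and 70 siHK1 reads). Its promoter region had 28 and 23 reads, a log2 ratio of 0.61.

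The other 11 of the lowest 15 were Rdm1, Daw1, Gm32123, Ephx2, Parp6, Cdcp2, Kif26a, Tcea3, Nfasc, Spdef and Aox2. Daw1, a ciliary dynein assembly factor, had 522 TGF and 124 siHK1 reads, and all 4 of its regions were lower. Gm32123, a predicted gene, showed 583 and 144 reads over 14 regions, 12 of them lower. Kif26a, an atypical kinesin, had 462 and 125 reads with 10 of 11 regions lower. For Parp6, an ADP-ribosyltransferase, and Cdcp2 the value came almost wholly from 1 region (100% and 98.5% of reads). Summed over the 15 genes, 73 of 82 regions had a ratio below 0 (89.0%), against 53.2% of the regions of all members, a difference that the choice of genes fixes. Of these 82 regions 14.6% were of promoter class and 20.7% held the AP-1 element in their centre, beside 23.9% and 24.6% over all members.

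**Figure D2:**
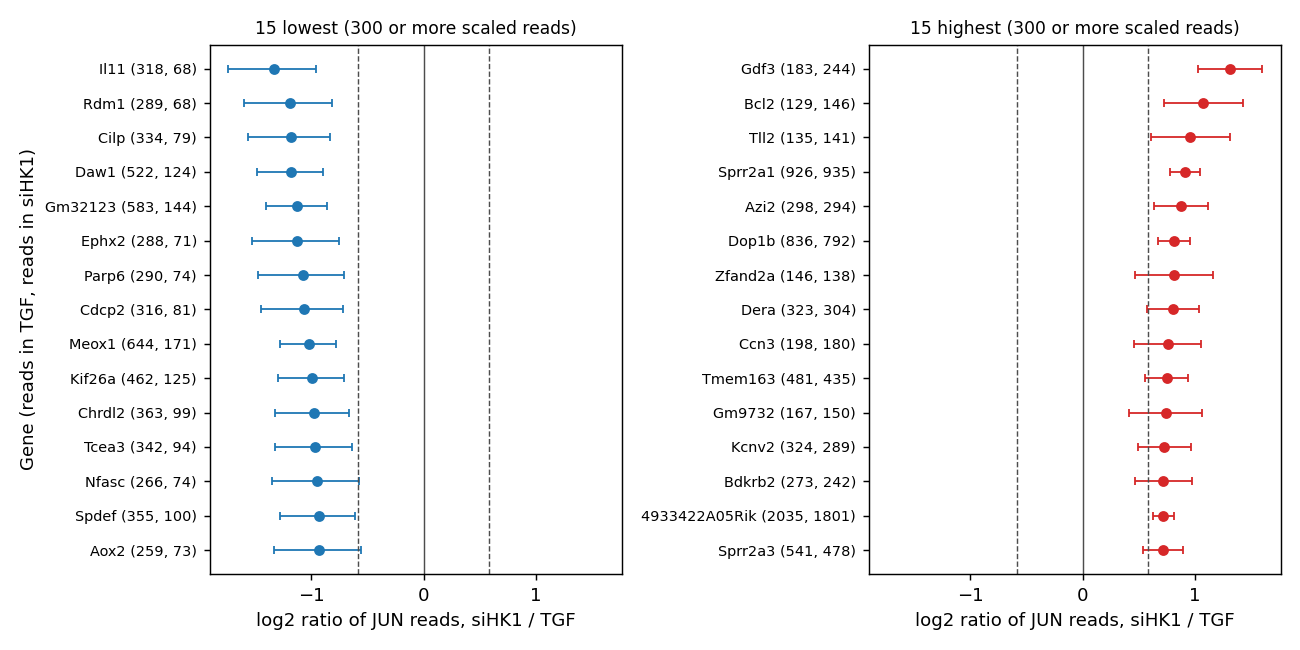
Log2 ratio of JUN reads with its 95% counting interval for the 15 lowest (left) and 15 highest (right) genes with 300 or more scaled reads. Reads in TGF and siHK1 stand in parentheses, and dashed lines mark 1.5-fold. No interval reaches 0, which follows from choosing the most extreme genes.

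The 15 highest genes ran from 0.71 to 1.31 after scaling, and without scaling most of them lay below 0. Bcl2, the inhibitor of mitochondrial apoptosis, had 129 TGF and 146 siHK1 reads, a log2 ratio of 1.07 (0.72 to 1.42), and 4 of its 5 regions were higher. Its most-read site, in an intron 82802 bases from the start, had 54 and 76 reads. Ccn3, a matricellular protein that opposes CCN2 in fibrosis models, had 198 and 180 reads (0.76, 0.46 to 1.05) with 5 of 6 regions higher. The Ccn3 promoter region alone had 88 and 106 reads, a log2 ratio of 1.16. Tll2, a tolloid-like metalloprotease, had 135 and 141 reads (0.95, 0.60 to 1.31), and the intronic site printed above had 27 and 48. Zfand2a, a zinc finger protein induced by arsenite and heat, had 146 and 138 reads (0.81) with all 3 regions higher. Bdkrb2, the bradykinin B2 receptor, had 273 and 242 reads (0.72) with 4 of 5 higher.

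Several of the highest values came from repeated or duplicated sequence. Gdf3, a TGF-β family ligand and the highest of the 15 (183 reads in TGF, 244 in siHK1, log2 ratio 1.31), rests on a single region of which 89.5% is soft-masked as repeat. 4933422A05Rik (2035 and 1801 reads, 0.72) took 89.2% of its reads from 1 region that is 92.8% soft-masked. Sprr2a1 (926 and 935 reads, 0.91) and Sprr2a3 (541 and 478, 0.71) are neighbouring copies of a cornified envelope gene, and the AP-1 element nearest the middle of the most-read such region of each stands in the same 61 bases, so their reads cannot be assigned to 1 copy with certainty. Azi2, Dop1b, Dera, Tmem163, Gm9732 and Kcnv2 complete the 15, with log2 ratios between 0.73 and 0.87. Dop1b took 54.1% of its reads from 1 region that holds 11 copies of the AP-1 element (397 and 483 reads, 1.17). Over all 15 genes 72 of 87 regions had a ratio of 0 or above (82.8%, against 46.8% of the regions of all members), which the choice of genes likewise fixes.

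The next genes are ones that the study names, most of them as markers of myofibroblasts. They differed among themselves. Acta2, which encodes smooth muscle α-actin, had 237 TGF and 78 siHK1 reads, a log2 ratio of -0.71 (-1.10 to -0.34), and was the 1 gene of the 10 measured in this list that lay beyond 1.5-fold. Its region over the start site (chr19:34254681-34256006), which holds the element printed above, had 208 and 61 reads, a log2 ratio of -0.87. For a region 10194 bases upstream the counts were 29 and 17 (log2 ratio 0.14).

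The collagen genes Col1a1, Col1a2 and Col3a1, which encode the fibrillar collagens of scar, were within 1.5-fold. Col1a1 had 1670 TGF and 748 siHK1 reads (-0.27), with a counting interval below 0 (-0.39 to -0.14). Col1a2 had 675 and 392 reads (0.11, -0.08 to 0.29). Col3a1 had 1135 and 589 reads over 21 regions (-0.05, -0.20 to 0.09), of which 11 were lower. Postn, which encodes the matricellular protein periostin, had 914 and 445 reads (-0.15, -0.31 to 0.02). Lox, the collagen cross-linking lysyl oxidase, had 772 and 375 reads (-0.15, -0.33 to 0.03). The intervals of these last 4 genes include 0 and also leave room for small differences of either sign.

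Axin2, a Wnt feedback inhibitor, had 693 TGF and 390 siHK1 reads (0.06), and Smyd3, a lysine methyltransferase, had 1416 and 697 (-0.13). Cdk1, the mitotic kinase, had 36 and 22 reads (0.19, -0.65 to 0.99), which is too few to show even a 1.5-fold difference. Slc40a1 (25 and 17 reads) and Irf7 (16 and 7 reads) were below the read minimum. Hk1 itself, the gene aimed at by the siRNA, had 846 and 541 JUN reads (0.25, 0.09 to 0.40). The siRNA acts on its messenger RNA, so this value is no check of the knockdown.

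The AP-1 genes had ratios near 0. Jun had 1279 reads in TGF and 699 in siHK1 over 15 regions, a log2 ratio of 0.02 (-0.11 to 0.15), with 8 regions lower. Fos had 588 and 312 reads (-0.02), Fosl1 285 and 163 (0.09), Fosl2 522 and 264 (-0.09), Junb 284 and 142 (-0.11), Jund 131 and 85 (0.27) and Atf3 436 and 229 (-0.04). Their intervals all include 0. Of the 18 measured members of the wider family, which also takes in the MAF proteins, 1 lay beyond 1.5-fold. This was Batf, an AP-1 partner known from lymphocytes, with 90 and 25 reads in a single region (-0.94, -1.66 to -0.30).

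**Figure D3:**
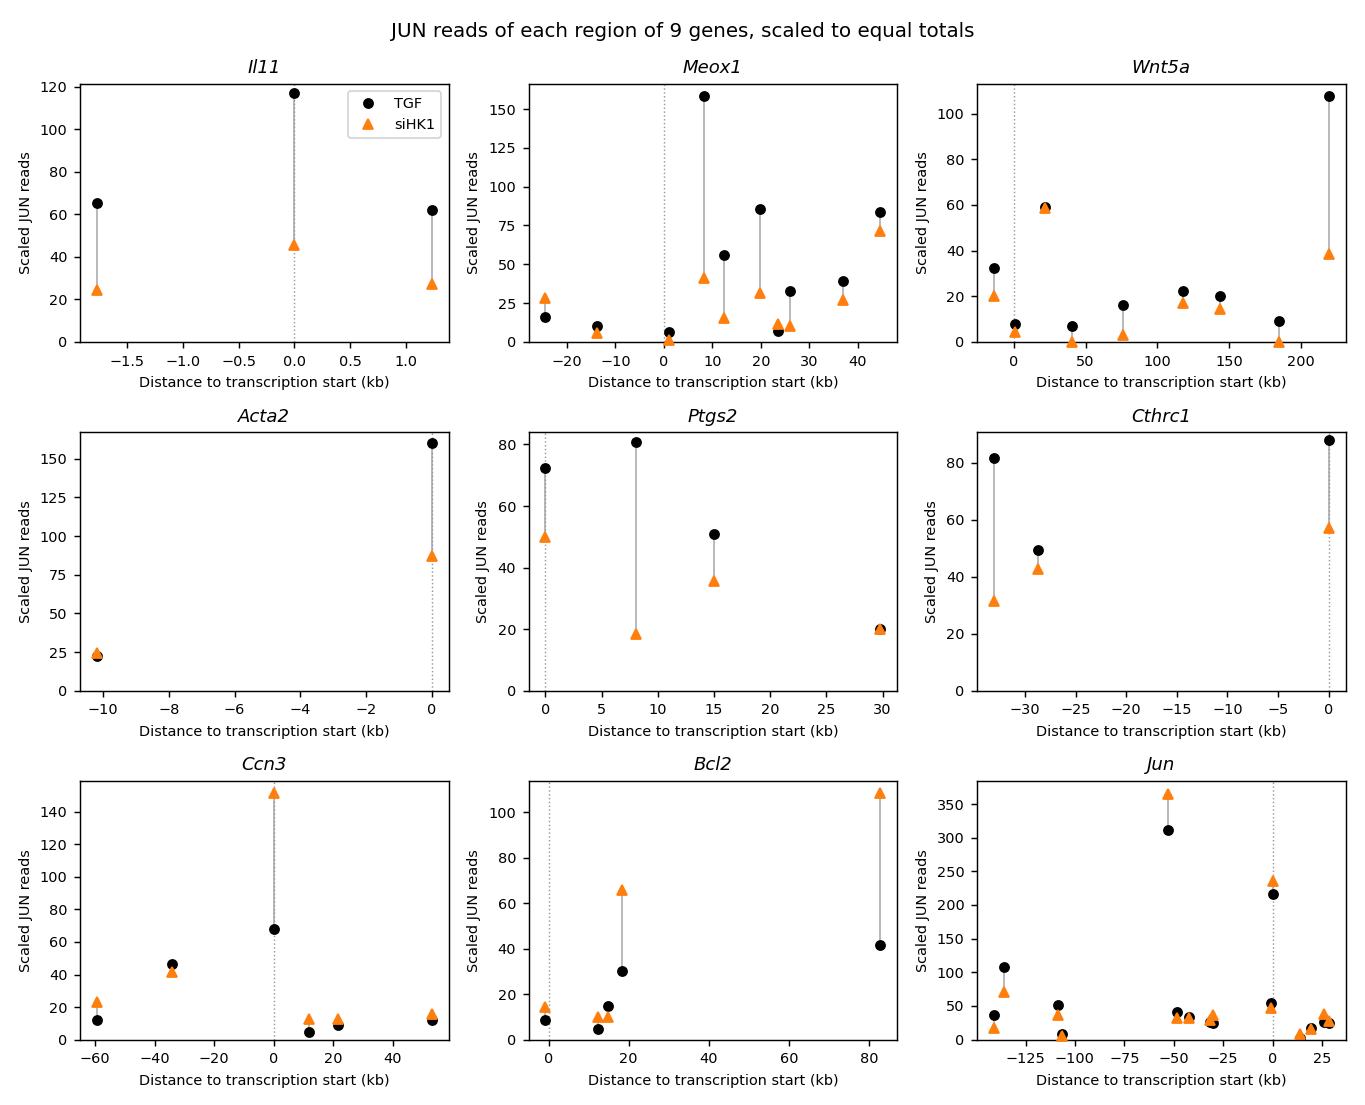
JUN reads of each region, scaled to equal totals (vertical), against its distance from the annotated transcription start in kb (horizontal) for 9 genes, in TGF (black circles) and siHK1 (orange triangles). All 3 Il11 and 9 Wnt5a regions have fewer siHK1 reads, Acta2 has fewer siHK1 reads at its start site and nearly equal reads upstream, and the Jun regions lie on either side of equality.

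Pathways were described through 24 lists that together hold 443 measured genes. Of these, 18 were lower (4.06%) and 8 higher (1.81%) by 1.5-fold or more. Over all members the shares were 6.14% and 4.07%, and over members with 300 or more scaled reads 2.21% and 0.973%. List genes were not matched to other members by reads. List medians ran from -0.15 to 0.14, beside -0.01 over all members. No list had more than 2 members beyond 1.5-fold in 1 direction. What stood out in them were single genes.

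**Figure D4:**
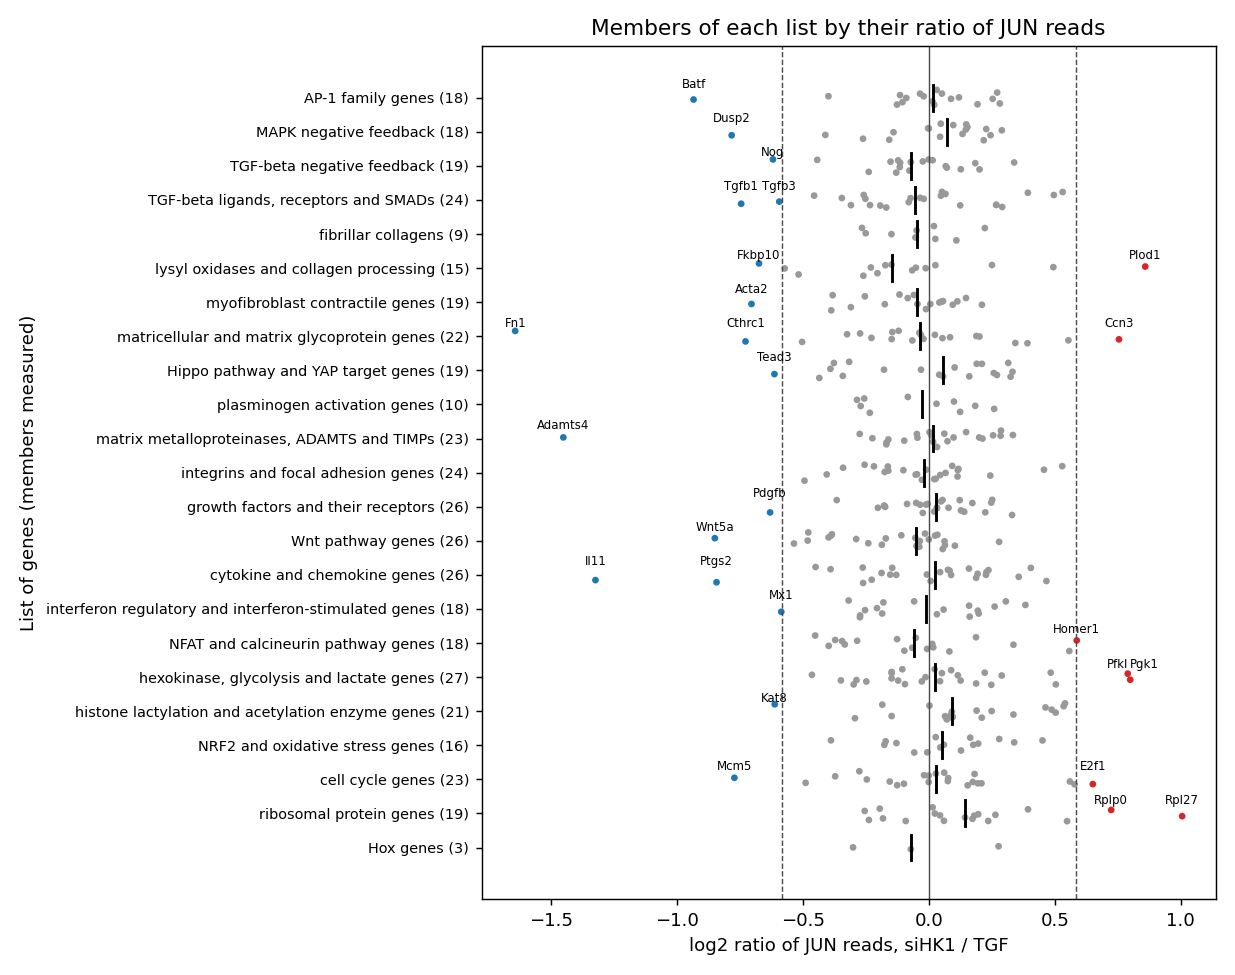
Log2 ratio of JUN reads for each measured member of 23 lists, with black bars at list medians, dashed lines at 1.5-fold, and names on genes lower (blue) or higher (red) by 1.5-fold or more. List medians sit near 0, and named genes with under 100 reads (such as Nog, Mx1 and Rpl27) rest on few counts.

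Among the TGF-β ligands, receptors and SMADs, 2 of 24 members were lower and none higher, with a median of -0.05. Over all members 6.14% were lower and 4.07% higher. The 2 lower genes encode ligands. Tgfb1, the main profibrotic isoform, had 110 reads in TGF and 35 in siHK1 in its promoter region (-0.75, -1.35 to -0.20). Tgfb3 had 113 and 40 reads over 6 regions, of which 5 were lower (-0.59, -1.16 to -0.07). The third isoform, Tgfb2, had 456 and 242 (-0.02). The receptor genes Tgfbr1 (338 and 143, -0.35) and Tgfbr2 (566 and 259, -0.23) and the transducer Smad3 (2636 and 1472, 0.05) were within 1.5-fold. Feedback inhibitors of the pathway had a median of -0.07 over 19 members, with Smad7 at 737 and 357 reads (-0.15) and Ski at 697 and 357 (-0.07).

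Over the 3 lists of matrix genes 3 of 46 members were lower (6.52%) and 2 higher (4.35%). The shares were 6.14% and 4.07% over all members, and 2.21% and 0.973% over members with 300 or more scaled reads. None of the 9 measured fibrillar collagens lay beyond 1.5-fold (median -0.05, from -0.27 for Col1a1 to 0.22 for Col5a2). Collagen processing genes had the lowest list median, -0.15, with 11 of 15 members below 0, and 1 lower and 1 higher by 1.5-fold or more. The lower gene was Fkbp10, a prolyl isomerase of procollagen folding, with 81 and 27 reads (-0.68). The higher one, named after its value was seen, was Plod1, a lysyl hydroxylase, with 44 and 43 reads (0.86, with a counting interval above 0). P4ha2, a prolyl hydroxylase subunit, had 402 and 305 (0.49), and Bmp1 of the same list 729 and 274 (-0.52). Of 22 matricellular and glycoprotein genes 2 were lower and 1 higher. Cthrc1, a secreted protein that marks activated cardiac fibroblasts, had 284 and 92 reads (-0.73, -1.09 to -0.39) with all 3 regions lower. A distal Cthrc1 region 33069 bases upstream had 106 and 22 reads, and the promoter region had 114 and 40. The other lower gene was Fn1, which encodes fibronectin, with only 43 and 7 reads (-1.64, -3.12 to -0.56), and it is named after its value was seen. The higher gene was Ccn3. Tnc (1659 and 822, -0.12), Sparc (869 and 461, -0.02) and Fbn1 (1016 and 580, 0.08) were close to equality.

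Contractile genes had 1 of 19 members beyond 1.5-fold, which was Acta2, and a median of -0.05. Well covered members such as Actn1 (1865 and 1034 reads, 0.04), Myh9 (1975 and 1068, 0.01) and Cald1 (1617 and 942, 0.11) were close to 0. None of 24 integrin and focal adhesion genes was called in either direction. Itgb3, the β3 subunit of the vitronectin receptor, had 859 and 349 reads (-0.41), and Itga5, the fibronectin receptor subunit, 2039 and 867 (-0.34). Of 10 plasminogen activation genes none lay beyond 1.5-fold, with Plaur, the urokinase receptor, at 782 and 430 reads (0.03). In the protease list 1 of 23 members was lower and none higher. This was Adamts4, an aggrecanase, with 63 and 12 reads (-1.45, -2.53 to -0.60), likewise named after its value was seen. Mmp13 had 294 and 153 reads (-0.05) and Timp1 428 and 232 (0.01), both genes with a well known AP-1 site.

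Single genes of the signalling lists also lay beyond 1.5-fold. Wnt5a, a ligand of non-canonical Wnt signalling, had 366 TGF and 109 siHK1 reads (-0.85, -1.18 to -0.54), and all 9 of its regions were lower. Its distal region printed above, 219422 bases from the start, had 140 and 27 reads, 35.2% of those of the gene. A region at 21420 bases had 77 and 41 (-0.01). It was the 1 gene of 26 in the Wnt list beyond 1.5-fold, and 19 of the 26 had a ratio below 0 (median -0.05), among them Wnt11 (593 and 220, -0.54). Pdgfb, a mitogen for mesenchymal cells, had 274 and 95 reads (-0.63, -0.99 to -0.29), of which the printed region held 255 and 80. The other 25 growth factor and receptor genes were within 1.5-fold, such as Egfr (1162 and 731, 0.22) and Vegfa (457 and 244, -0.01). Tead3, a DNA-binding partner of YAP, had 373 and 131 reads (-0.61, -0.92 to -0.33) with all 4 regions lower, and was the 1 called gene of 19 in the Hippo list.

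Of 26 cytokine and chemokine genes 2 were lower (7.69%, beside 6.14% of all members), Il11 and Ptgs2, and none was higher. Ptgs2, the inducible cyclooxygenase, had 291 reads in TGF and 87 in siHK1 (-0.84, -1.21 to -0.50). Its region 8026 bases downstream of the start, printed above, had 105 and 13 reads (-2.07), and the promoter region had 94 and 35 (-0.52, -1.14 to 0.04). Il6 had 458 and 282 reads (0.19), Lif 2132 and 957 (-0.26), Ccl2 1363 and 730 (-0.01) and Cxcl12 1524 and 865 (0.08). The list median was 0.03. Of 18 interferon genes 1 was lower (median -0.01), and Irf2 had 770 and 497 reads (0.26).

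Genes of HK1's own pathway gave 2 higher of 27 and none lower (median 0.02). Over all members 4.07% were higher and 6.14% lower, and in quintiles 1 and 2 by level 9.52% and 6.17% were higher. The 2 higher pathway genes both had few reads. Pfkl, a phosphofructokinase subunit, had 58 and 54 reads (0.79, 0.23 to 1.35), and Pgk1, phosphoglycerate kinase, 64 and 60 reads (0.80, 0.27 to 1.33). Hk2 had 1261 and 666 reads (-0.03), and Ldha, lactate dehydrogenase A, 131 and 100 (0.50). Enzymes that write or erase acetyl and lactyl marks had 1 lower and none higher of 21. Their median was 0.09, and 4 of the 21 had a ratio below 0. The acetyltransferase gene Ep300 had 55 and 43 reads (0.54) and Hdac7 817 and 469 (0.09). Homer1, a scaffold in the calcineurin list, had 73 and 59 reads (0.59), and Nfatc2 in the same list had 3814 and 1502 (-0.45). Of 23 cell cycle genes 1 was lower and 1 higher, the latter E2f1 with 58 and 49 reads (0.65). Of 16 NRF2 and oxidative stress genes, which take in Nfe2l2 itself and its regulators Keap1 and Bach1, none lay beyond 1.5-fold. Ribosomal protein genes had the highest list median, 0.14 over 19 members, of which 5 had a ratio below 0. In this list 2 genes were higher, both with under 100 reads, and none lower, beside 4.07% and 6.14% over all members. MAPK feedback genes had 1 of 18 lower (median 0.07), and their most-read member, the phosphatase gene Dusp10, had 3392 and 1954 reads (0.10). Of the 39 Hox genes listed 33 had no JUN region.

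Most of the 10 genes with the most reads hold them in repeated or copied sequence. Col19a1 led with 35572 reads in TGF and 22189 in siHK1 (log2 ratio 0.21), and 3 of its regions, on chromosome 1, consist of 25-base words all found in the mitochondrial genome. Lrrc4c had 21335 and 18045 reads (0.65), and the region that took 75.3% of them is 81.3% soft-masked. Mir101c (19658 and 16532, 0.64), whose regions lie at the start of chromosome 9, and Gm5458 (5787 and 4955, 0.67) were alike in being mostly masked. Rn45s, the ribosomal RNA precursor, had 8183 and 5079 reads (0.20). Fgf14 (5277 and 3754, 0.40) and Mrgprd (4147 and 2787, 0.32) have most or all reads in a fully masked region. Pvt1 (4970 and 2834, 0.08), Elmo1 (4353 and 2276, -0.04) and Pisd-ps2 (4750 and 2309, -0.15) had 53, 51 and 17 regions. The 114 regions with 1000 reads or more held 4.22% of the TGF and 5.30% of the siHK1 reads, a log2 ratio of 0.33 over their sum.

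That share moved with the region class. Exonic regions had a summed log2 ratio of 0.14, the highest of the 7 classes, but 28 exonic regions with 1000 or more reads had 83138 and 61800 reads (0.46), and the other 3021 had a summed ratio of -0.02. Summed ratios of the larger classes were 0.00 in promoters, -0.02 in introns and -0.01 in distal regions. By base composition, the most AT-rich quintile of regions (median GC 41.1%) had a median log2 ratio of 0.05, and the other quintiles lay between -0.09 and -0.03. The part of base composition and of repeats in single genes was not tested.

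Peak marks and read ratios are tied to each other, since a peak call needs reads. Regions with a peak in both libraries numbered 36285 (49.7%) with a median log2 ratio of 0.08, those marked in TGF alone 27790 (38.1%) at -0.57, and those marked in siHK1 alone 8832 (12.1%) at 1.05. The first kind was wider and denser, with a median width of 601 bases and 140 reads per kb in TGF, against 312 bases and 73.1 reads per kb for regions marked in TGF alone. Of the 82 regions of the 15 lowest genes, 50 were marked in TGF alone and 28 in both. The reads in listed regions were 1.86 times as many in TGF, and the part of this difference in the peak marks was not tested.

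The JUN ratios were set beside those of the other antibodies, for genes with at least 50 reads in both tables. Across genes, Pearson's r with the SMAD3 ratio was -0.09 (3108 genes), with NFATC2 -0.07 (2598 genes) and with lactylated histone H3 lysine 9 (H3K9lc) -0.01 (5320 genes). Genes are not independent replicates, each table has its own pair of libraries, and the SMAD3 and NFATC2 tables held 563562 and 575706 reads in TGF, so sparse counts limit these values. Among 294 genes lower for JUN the median H3K9lc log2 ratio was -0.03, and among 182 higher genes it was -0.02, beside -0.04 over all. The SMAD3 median was -0.14 among 114 genes lower for JUN and -0.46 among 58 higher ones, beside 0.10 over all. The NFATC2 median was 0.08 among 93 lower and -0.16 among 53 higher genes, beside 0.06 over all. For both, the genes higher for JUN thus had a median below that of all genes.

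Over the 3108 genes with 50 or more reads in both tables the SMAD3 ratio was above 0 for 54.7%, with a counting interval above 0 for 24.7% and below 0 for 17.5%. Genes within 1.5-fold for JUN had like shares (25.4% and 17.0% by interval), among them Col1a1 (62 and 105 SMAD3 reads, 1.25, 0.79 to 1.73) and Jun (47 and 52, 0.64, 0.04 to 1.24). Of the 15 lowest JUN genes, 4 had 50 or more SMAD3 reads, and all 4 had a SMAD3 ratio above 0. The counting interval was above 0 for 3 of these, Parp6 (17 TGF and 37 siHK1 reads, 1.59, 0.75 to 2.54), Meox1 (43 and 49, 0.68, 0.06 to 1.31) and Kif26a (70 and 76, 0.61, 0.13 to 1.10). With fewer reads, the SMAD3 interval was also above 0 for Cilp (15 and 29, 1.42), Gm32123 (14 and 33, 1.70), Tcea3 (11 and 26, 1.70) and Aox2 (6 and 16, 1.84), and for none of the 15 was it below 0. Of the 15 highest JUN genes, 7 had 50 or more SMAD3 reads and 6 of them a ratio below 0. The interval was below 0 for Sprr2a1 (62 and 27, -0.69), Dera (58 and 22, -0.88), Gm9732 (99 and 49, -0.51) and 4933422A05Rik (4154 and 2211, -0.41). With fewer reads Ccn3 was above 0 (9 and 19, 1.53). These counts are too small to set the lead genes apart from other genes.

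The NFATC2 ratio was above 0 for 54.3% of 2598 genes, with an interval above 0 for 11.4% and below 0 for 9.01%. Of the lead genes, 4 of the 5 lowest JUN genes that had 50 or more reads were above 0, and all 4 such highest genes were below it, Dop1b (-0.0084) and Azi2 (-0.056) by little. Intervals off 0 were found among these for Cdcp2 (23 and 32, 1.17) and 4933422A05Rik (3729 and 2053, -0.16), and with fewer reads for Il11 (2 and 9), Chrdl2 (9 and 24, 2.07, 0.96 to 3.40) and Bdkrb2 (4 and 9, 1.78), all 3 above 0. Reads were thus too few for most genes with this antibody.

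H3K9lc was better covered, with a ratio above 0 for 42.8% of 5320 genes and an interval above 0 for 5.38% and below 0 for 8.46%. Of the 8 lowest JUN genes with 50 or more reads 4 were above 0 and 4 below, and of the 15 highest 9 were above and 6 below. The interval was above 0 for Cdcp2 (39 and 36, 0.70) among the lowest, and for Bcl2 (32 and 38, 1.06, 0.34 to 1.79), Dop1b (1121 and 809, 0.34) and 4933422A05Rik (5456 and 4237, 0.45) among the highest. It was below 0 for none of the 30 genes. Ccn3 (60 and 23, -0.55, -1.33 to 0.14) and Gdf3 (430 and 244, -0.0044) were not above 0. For list genes described above, H3K9lc gave Cthrc1 253 and 134 reads (-0.10), Wnt5a 77 and 48 (0.14), Ptgs2 50 and 18 (-0.64, -1.53 to 0.14) and Tead3 22 and 25 (0.99, 0.11 to 1.89). Tead3 was likewise above 0 with SMAD3 (15 and 35, 1.69, 0.81 to 2.70). The H3K9lc table listed no region for Acta2 or Il11, and at Irf7 it held 3301 TGF and 4 siHK1 reads in 1 region, where JUN had 16 and 7.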

How the data were processed

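CUT&Tag for JUN was analysed in 1 TGF and 1 siHK1 library of 10 in the series, and groups follow the library titles. The deposited counts are raw reads per region that the authors obtained in each library, with 0 or 1 marks for peaks. The submitters' processing notes name BWA 0.7.12 and mm10, whereas the study's methods name Bowtie2, MACS2 and GRCm39. Of 30374 annotated transcripts 30096 were found in GENCODE vM21 (GRCm38), all with the same coordinates (100%), so positions are on GRCm38, counted from 1. The tables also hold the authors' normalized values, ratios and p-values, which were not used. Tables of the unlabelled TGF library and of the control (NC) library were not used here. The methods name spike-in DNA, for which no counts were used.

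Counts were summed per symbol, leaving out 83 regions with none. The log2 ratio of siHK1 to TGF used a pseudocount of 0.5 after scaling to the totals over listed regions, which are not library depths. Genes past 1.5-fold are counted as lower or higher. Named were the 15 lowest and 15 highest genes with 300 or more scaled reads, the 10 genes with most reads, list members past 1.5-fold with 100 or more reads and examples within it, genes shown in the study and AP-1 genes. Members and lists were chosen with earlier results of these data known. Promoter windows run from 250 bases before to 50 after a RefSeq start. The other antibodies entered side by side. Ratios and intervals were tested on simulated data. Alternatives were other scalings, read minimums, pseudocounts and region subsets. Python 3.11.15, pandas 2.3.3, SciPy 1.17.1, matplotlib 3.10.9 and pysam 0.24.0 were used.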

Additional observations from a re-analysis of the deposited data

How the results depend on the processing

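The 826 lower and 548 higher genes stayed within 1.5 times these counts, and the median log2 ratio of -0.01 within its interval (-0.01 to 0.00), with the median gene set to 0, with a running median along the level removed, with the minimum of 50 reads applied after scaling, on chromosomes 1 to 19 and X, and, chosen after seeing the data, without regions of 1000 or more reads. Without scaling 11333 genes were lower and 3 higher (median -0.90), as the totals differ 1.86-fold. Whether depth or binding lies behind the difference in totals was not tested. A minimum of 20 reads gave 1408 and 1005, and one of 200 reads 243 and 93. At 2-fold or more there were 163 and 71, and 77 and 30 had a counting interval wholly past 1.5-fold. A pseudocount of 5 gave 505 lower genes (median 0.031), and regions with a peak in both libraries gave 428 (median 0.058). Without the most-read region of each gene 341 were higher (median -0.042). The median was -0.064 with totals equal over regions marked in both libraries, 0.019 in promoters and -0.021 outside them. The cause of the shifts by region subset was not tested.

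Of the 15 lowest genes all 15 stayed past 1.5-fold under each scaling and pseudocount. On regions with a peak marked in both libraries 14 of the 15 lowest did so, with Meox1 at -0.13, and 13 of 14 of the highest. Of the lowest, 12 of the 13 with enough reads did so without their most-read region. Without that region 7 of 13 of the highest genes were past it, all 13 above 0. Of 53 named genes with enough reads without that region, 10 left their counting interval and 1 reversed. Chrdl2 reversed, to 0.61 in promoters and 0.12 without its main region. Without scaling higher genes fell below 0, to -0.019 for Azi2, -0.078 for Dop1b, -0.081 for Zfand2a, -0.087 for Dera, -0.14 for Ccn3, -0.14 for Tmem163, -0.15 for Gm9732, -0.16 for Kcnv2, -0.17 for Bdkrb2, -0.18 for 4933422A05Rik, -0.18 for Sprr2a3, -0.24 for Lrrc4c, -0.25 for Mir101c, -0.22 for Gm5458, -0.30 for Homer1, -0.10 for Pfkl, -0.092 for Pgk1 and -0.24 for E2f1. Depth limits most genes: the median counting interval was 0.80 wide on the log2 scale, and replicate variation is unknown. No paired analysis was possible because each group has 1 library.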
